A study of Homo sapiens with 9 samples.

Results

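The human mitochondrial genome encodes 37 genes, and all 37 were found among the 61832 rows of the deposited count table. They were chosen by name, as every row whose symbol begins with MT-, and comprise 13 mRNAs, 2 rRNAs and 22 tRNAs. RNA-seq was done on HCT116 cells, a long-established line from a human colorectal tumour that is labelled WT, and every library came from cells that carried a short hairpin RNA. In shSLC6A3 DMSO (3 libraries) the hairpin was directed at SLC6A3, which encodes the dopamine transporter, and the cells received the solvent DMSO. In shCTRL VXN (3 libraries) the hairpin was a control and the cells received an agent that the labels abbreviate as VXN and do not explain. In shCTRL DMSO (3 libraries), the reference for both, the control hairpin was combined with DMSO. For shCTRL VXN replicate 3 the title writes VNN, and its treatment label, which says VXN, was used. The labels give no dose, no time and no clone, and do not say whether the replicates were separate cultures, so p-values measure no more than how these libraries differ among themselves, which may be technical.

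Both result tables deposited by the authors use other names, shCTRL V, shDAT D and shCTRL D, and their statistics came from other sets of libraries than the labels give. A DESeq2 rerun returned all 38907 p-values of each table within 1e-05 when the libraries were put into the following trios. Trio shCTRL V was shSLC6A3 DMSO replicate 1, shCTRL VXN replicate 3 and shCTRL DMSO replicate 3. Trio shDAT D was shCTRL VXN replicate 1 with shCTRL DMSO replicates 1 and 2, and trio shCTRL D was shSLC6A3 DMSO replicates 2 and 3 followed by shCTRL VXN replicate 2. The values of a trio are listed below in those orders. Which of the labels and the tables names the treatments rightly is not known, so tests were made here between the labelled groups, and the comparisons of the trios are given with the authors' own statistics.

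Mitochondrial DNA is a circle that is transcribed on both strands into long precursors, from which most mRNAs and rRNAs are released by cutting out the tRNAs that lie between them. The mRNAs encode core subunits of respiratory complexes I, III and IV and of ATP synthase (complex V), the rRNAs build the mitochondrial ribosome, and the tRNAs read the mitochondrial code. Most mitochondrial mRNAs end in a poly(A) tail, the rRNAs in a short run of A, the tRNAs in CCA, and human MT-ND6 mRNA carries little or no tail. The kit named in the labels enriches RNA with poly(A) and does not mark the strand, so for the 9 features encoded on the minus strand, MT-ND6 and 8 tRNAs, reads from the gene and from its antisense partner cannot be told apart.

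Libraries held 30.25 to 60.22 M (1e6) counts. Epithelial markers summed to 4149 to 4766 CPM (counts per 1000000 counts of a library), with 5 of 7 markers at a mean of at least 1 CPM and CDX1 below 0.1 CPM throughout. Leukocyte markers summed to 3.19 to 6.84 CPM, endothelial markers to 0.266 to 1.22 CPM and fibroblast markers to 18.7 to 46.4 CPM, and PTPRC, CD3E, DCN and COL1A2 were below 0.1 CPM in each library. SLC6A3 itself lay at 0 to 0.118 CPM, too low to check the knockdown. MKI67, which marks cycling cells, had 72.0, 60.8 and 73.0 CPM in trio shCTRL V and 523 to 626 CPM elsewhere. No pair of libraries agreed within counting noise, and the closest, shSLC6A3 DMSO replicate 1 and shCTRL DMSO replicate 3, had a chi-square of 1.33 per degree of freedom over 21567 features. Next came shSLC6A3 DMSO replicates 2 and 3 at 1.43 and shCTRL DMSO replicates 1 and 2 at 2.67, and all other pairs stood at 6.65 or more. Each of these close pairs lies within 1 trio, so p-values between trios rest in part on the small spread within them. In shCTRL VXN replicate 3, RNAs that lack a poly(A) tail stood above all other libraries, with cytosolic rRNA rows at 102 CPM against 2.88 to 9.80 CPM and the signal recognition particle RNA RN7SL1 at 30.5 CPM against 0.973 to 3.18 CPM.

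The share of counts on mitochondrial RNA differed from shCTRL DMSO by less than the SD within shSLC6A3 DMSO and within shCTRL VXN, while its make-up differed from library to library within each labelled group. The share on all 37 genes was 6.27%, 5.35% and 5.45% in shSLC6A3 DMSO, 6.96%, 5.26% and 5.40% in shCTRL VXN and 6.07%, 6.05% and 6.28% in shCTRL DMSO. The groups overlapped in both comparisons. The mean was 5.69% ± 0.507 in shSLC6A3 DMSO and 6.13% ± 0.129 in shCTRL DMSO (SD, n = 3 each), a difference of -0.442 percentage points (two-sided exact permutation test, p = 0.3, adjusted p = 0.6 over 4 tests). It was 5.87% ± 0.943 in shCTRL VXN, a difference of -0.262 points from shCTRL DMSO (exact p = 0.8, adjusted p = 0.8). With 3 libraries against 3 the smallest p this test can give is 0.1. The widest 95% Wilson interval of a share, in the shallowest library, ran from 6.95% to 6.97%, so counting error is small beside the spread between libraries. In bulk RNA, fewer cells of a kind and less mitochondrial RNA per cell cannot be told apart.

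Of the mitochondrial counts, the 2 rRNAs took 32.2%, 10.3% and 10.3% in shSLC6A3 DMSO, 10.6%, 10.4% and 35.0% in shCTRL VXN and 8.87%, 8.62% and 32.1% in shCTRL DMSO. One library of each labelled group was thus high and the others low, and the 3 high ones form trio shCTRL V. As a share of the whole library, the rRNAs took 2.02%, 1.89% and 2.02% in trio shCTRL V and 0.521% to 0.735% in the other libraries. The 13 mRNAs took 4.25%, 3.49% and 4.26% of the library in trio shCTRL V and 4.70% to 6.21% in the others, so the groups of libraries did not overlap on this measure either. Between the labelled groups the rRNA share of mitochondrial counts differed by 1.06 percentage points for shSLC6A3 DMSO and 2.14 points for shCTRL VXN, each less than the spread within a group (exact permutation tests, adjusted p = 0.5 for both, over 6 tests). The same family of tests covered the tRNA share of mitochondrial counts, 0.180% in shSLC6A3 DMSO and 0.202% in shCTRL VXN against 0.126% in shCTRL DMSO (adjusted p = 0.4 and 0.3, exact), and the share of MT-ND6 among mRNA counts, 0.212% and 0.224% against 0.0913% (adjusted p = 0.3 and 0.5, exact).

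**Figure D1:**
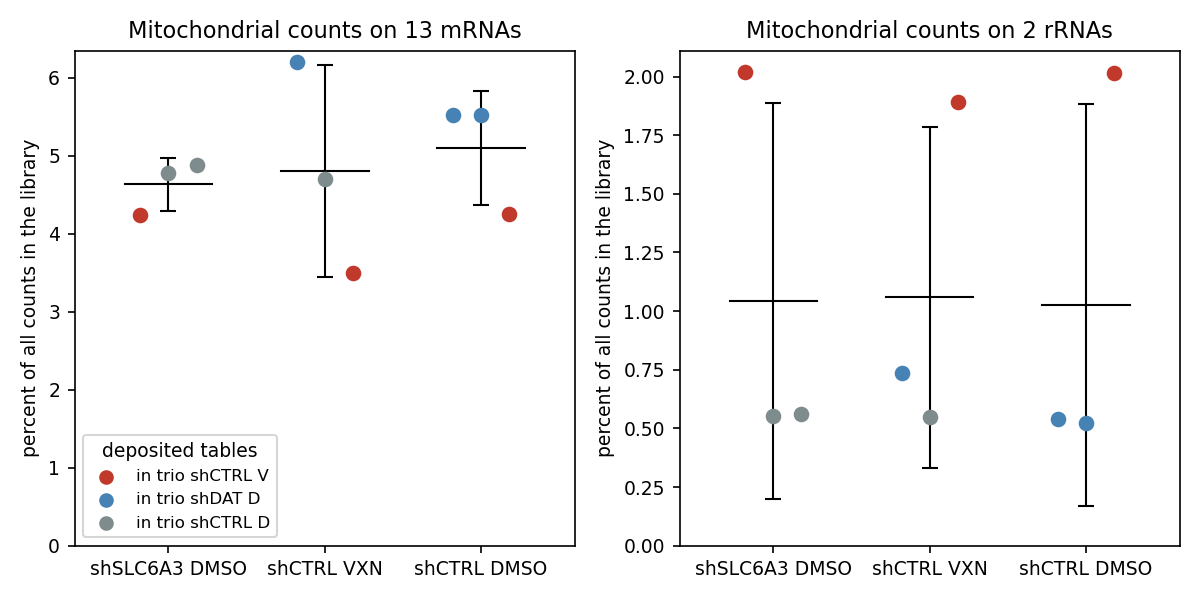
Percent of all counts of a library that fell on the 13 mitochondrial mRNAs (left) and on the 2 mitochondrial rRNAs (right), in the 3 labelled groups. Each point is 1 library, coloured by the trio of the deposited tables it belongs to, and lines and bars show the mean and SD (n = 3). In every labelled group 1 library stands at 1.89% to 2.02% for the rRNAs while the others stay at or below 0.735%.

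Gene by gene, no mitochondrial RNA was called between the labelled groups. edgeR's quasi-likelihood test with Benjamini-Hochberg adjustment called 0 of 35 tested members for shSLC6A3 DMSO against shCTRL DMSO, where 0% of 20402 features were called higher and 0% lower. It called 0 of 35 for shCTRL VXN against shCTRL DMSO, where 0% were called higher and 0.00980% lower. At an unadjusted edgeR p below 0.05 there were 4 of 35 members for shSLC6A3 DMSO and 2 of 35 for shCTRL VXN, where 4.56% and 1.88% of all features passed. DESeq2 called 0 members in each, where 0 and 20 of 20315 features were called. At an unadjusted DESeq2 p below 0.05 there were 9 and 3 of 31 members, where 6.02% and 2.22% of all features passed. The median log2 change of the 35 members was 0.02 for shSLC6A3 DMSO and 0.25 for shCTRL VXN, against -0.01 and 0.00 over all features tested.

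The 4 members at an unadjusted p below 0.05 for shSLC6A3 DMSO were MT-ND5, with a log2 difference of -0.69, and the tRNAs MT-TE (0.84), MT-TF (0.87) and MT-TY (1.72), each with an adjusted edgeR p of 0.978. MT-ND5, the proton-pumping subunit of complex I with the longest mitochondrial mRNA, had 2265, 1242 and 1303 CPM in shSLC6A3 DMSO against 2844, 2884 and 2264 CPM in shCTRL DMSO. The first library of shSLC6A3 DMSO and the third of shCTRL DMSO stood at about the same level, so the groups overlapped. For shCTRL VXN they were MT-TE (1.45) and MT-TS1 (0.96), each with an adjusted edgeR p of 1. MT-TE, the tRNA for glutamate, had 2.05, 1.20 and 1.45 CPM in shCTRL VXN against 0.588, 0.561 and 0.570 CPM in shCTRL DMSO. All libraries of shCTRL VXN lay above those of shCTRL DMSO for MT-TE and MT-TS1, a pattern that 3.06% of all features showed, and no member lay wholly below, where the share of all features was 3.28%. In shSLC6A3 DMSO, 4 of 35 members, MT-ND6, MT-TV, MT-TN and MT-TC, lay wholly above shCTRL DMSO, where 2.81% of all features did. Wholly below lay 1 of 35, MT-TG, where 6.14% of all features did.

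Both rRNAs differed little on average between labelled groups, and the omission of 1 library turned their direction. MT-RNR1 (12S rRNA of the small ribosomal subunit, chrM:648-1601, plus strand, GRCh38) had a log2 difference of 0.14 for shSLC6A3 DMSO and 0.06 for shCTRL VXN against shCTRL DMSO. Without shSLC6A3 DMSO replicate 1 the first became -1.24, without shCTRL VXN replicate 3 the second became -1.56, and without shCTRL DMSO replicate 3 they became 2.01 and 1.93. Without shCTRL DMSO replicate 1 they were -0.30 and -0.38, and without its replicate 2 -0.30 and -0.39. MT-RNR2 (16S rRNA of the large subunit, chrM:1671-3229, plus strand) stood at 0.01 and 0.04, and the first 3 omissions gave -0.75, -0.49 and, for shCTRL DMSO replicate 3, 0.78 and 0.82. Without shCTRL DMSO replicate 1 or 2, MT-RNR2 lay between -0.26 and -0.22. With total counts as the only scaling, the MT-RNR2 difference for shSLC6A3 DMSO was -0.01.

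Some mitochondrial RNAs were called between the trios in both of the authors' deposited tables. In the authors' deposited table for shCTRL V against shCTRL D, 6 of 35 members with an adjusted p rose and 8 fell (DESeq2, adjusted p below 0.05), where 21.4% of 24274 features rose and 22.7% fell. The members that rose were the 2 rRNAs, MT-ND3 and the tRNAs MT-TK, MT-TW and MT-TI, and those that fell were MT-CO1, MT-CO2, MT-CO3, MT-ND1, MT-ND4 and the tRNAs MT-TF, MT-TY and MT-TL1. The median log2 change in the authors' deposited table was 0.07 over the 35 members and 0.00 over all features. All libraries of trio shCTRL V lay above those of trio shCTRL D for 9 of 35 members, where 26.6% of features did. They lay below for 6 of 35, where 27.8% of features did. The shares of members that moved were therefore near or below those of all features. The log2 changes in the authors' deposited tables are shrunken towards 0, so they understate the change of members with variable or low counts.

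MT-RNR1 had 6723, 6675 and 6716 CPM in trio shCTRL V, 1041, 791 and 780 CPM in trio shDAT D and 1163, 1168 and 899 CPM in trio shCTRL D. Trio shCTRL V was high in all its libraries and the other trios were low, with a mean in shCTRL V that was 6.23 times that of shCTRL D. The authors' deposited table gave MT-RNR1 a log2 change of 2.63 for shCTRL V (SE 0.14, adjusted p = 9.90e-75 from DESeq2). MT-RNR2 had 13451, 12251 and 13449 CPM in trio shCTRL V, 6310, 4592 and 4435 CPM in trio shDAT D and 4352, 4449 and 4570 CPM in trio shCTRL D. It was again high in trio shCTRL V alone, with a mean 2.93 times that of shCTRL D, and the authors' deposited table gave 1.54 (SE 0.13, adjusted p = 3.44e-34 from DESeq2). The rRNAs thus did not move by the same factor, and the ratio of MT-RNR1 to MT-RNR2 counts was 0.499 to 0.545 in trio shCTRL V, 0.165 to 0.176 in trio shDAT D and 0.267, 0.263 and 0.197 in trio shCTRL D. Their last 30 bases, the ends that receive the short run of A, are shown because the kit enriches RNA by its poly(A) end (GENCODE v29 transcripts on GRCh38, all in lower case, with T for U).
MT-RNR1, chrM:1572-1601, plus strand: aagtgtactggaaagtgcacttggacgaac
MT-RNR2, chrM:3200-3229, plus strand: tatacccacacccacccaagaacagggttt

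**Figure D2:**
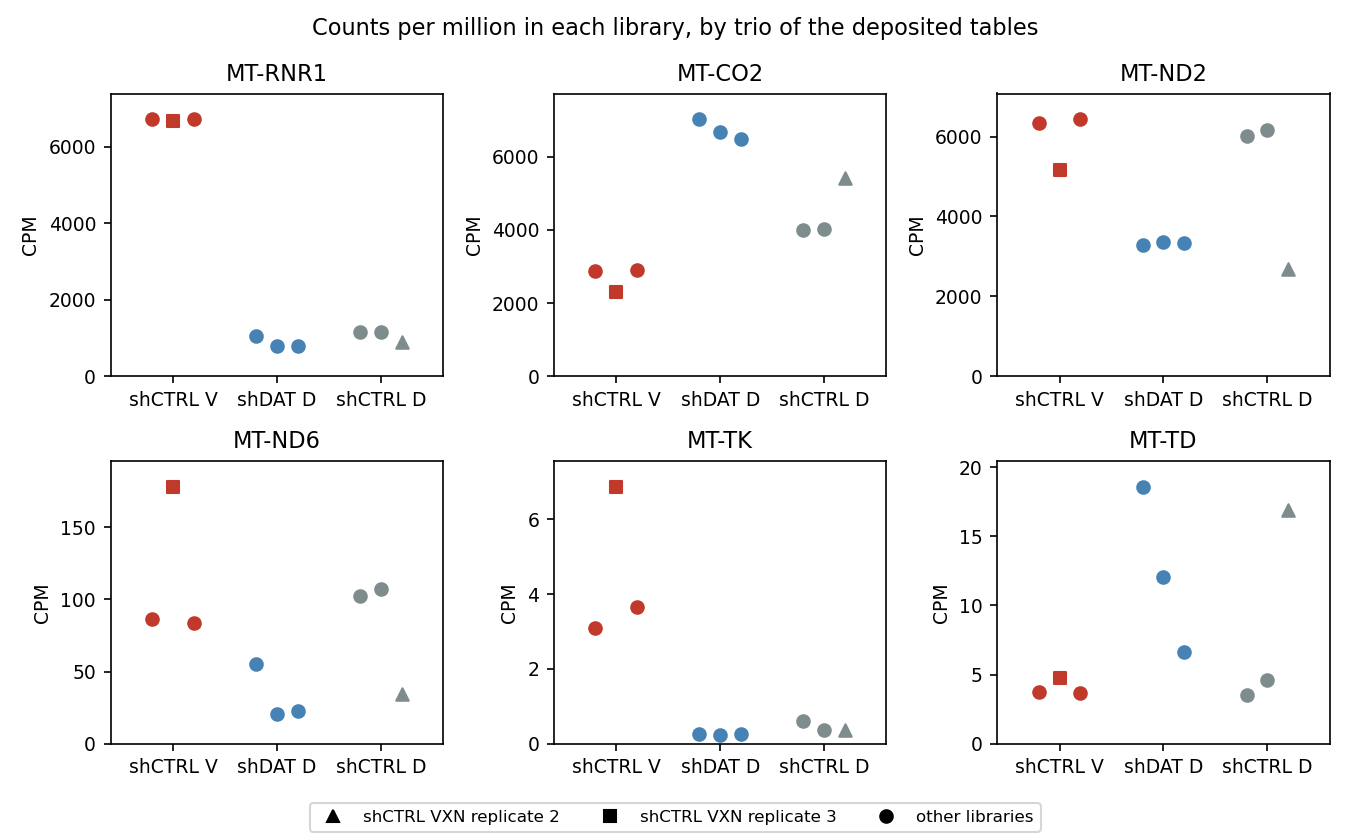
CPM of 6 mitochondrial RNAs in the 9 libraries, grouped by trio of the deposited tables. Each point is 1 library, with shCTRL VXN replicate 2 drawn as a triangle and shCTRL VXN replicate 3 as a square. MT-RNR1 and MT-TK are high in trio shCTRL V only, and for MT-CO2, MT-ND2, MT-ND6 and MT-TD the triangle stands apart from the other libraries of trio shCTRL D.

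The 3 mRNAs of complex IV, the cytochrome c oxidase that passes electrons to oxygen, were the members that moved in both of the authors' tables. MT-CO2, which encodes the subunit that takes electrons from cytochrome c, had 2874, 2313 and 2892 CPM in trio shCTRL V, 7030, 6687 and 6489 CPM in trio shDAT D and 3998, 4032 and 5410 CPM in trio shCTRL D. The trios did not overlap, with shCTRL V lowest and shDAT D highest. In the authors' deposited tables MT-CO2 fell by 0.69 on the log2 scale in shCTRL V (SE 0.11, adjusted p = 1.34e-09) and rose by 0.52 in shDAT D (SE 0.12, adjusted p = 0.00546), both against the same shCTRL D libraries, both from DESeq2.

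MT-CO1, the catalytic subunit, had 5313, 4746 and 5321 CPM in trio shCTRL V, 10188, 8401 and 8302 CPM in trio shDAT D and 5751, 5815 and 7612 CPM in trio shCTRL D. MT-CO3, a further core subunit, had 4803, 4202 and 4819 CPM in trio shCTRL V, 9437, 7932 and 7957 CPM in trio shDAT D and 6368, 6474 and 6943 CPM in trio shCTRL D. Both showed the same order of trios without overlap, and in both the highest library of trio shCTRL D was shCTRL VXN replicate 2. The authors' deposited tables gave MT-CO1 a log2 change of -0.29 in shCTRL V (adjusted p = 0.0163) and 0.39 in shDAT D (adjusted p = 0.0215), and MT-CO3 one of -0.50 (adjusted p = 8.98e-08) and 0.26 (adjusted p = 0.0311), all from DESeq2. Together the 3 mRNAs made up 30.6%, 32.2% and 30.6% of mitochondrial mRNA counts in trio shCTRL V, 42.9%, 41.7% and 41.2% in trio shDAT D and 33.7%, 33.5% and 42.5% in trio shCTRL D. The last of these, shCTRL VXN replicate 2, lay within the range of trio shDAT D rather than with its own trio.

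The 7 mRNAs of complex I, the NADH dehydrogenase that feeds electrons into the chain, did not move as a group. MT-ND4, a proton-pumping subunit, had 6129, 4860 and 6064 CPM in trio shCTRL V, 11509, 10245 and 9976 CPM in trio shDAT D and 8341, 8619 and 8366 CPM in trio shCTRL D. The trios were again ordered as for complex IV and did not overlap. The authors' deposited table gave MT-ND4 a log2 change of -0.55 in shCTRL V (SE 0.10, adjusted p = 1.94e-07 from DESeq2), and for shDAT D 0.20 with an adjusted p of 0.0681.

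MT-ND3, a small subunit of the complex I membrane arm, went the other way, with 1399, 1246 and 1417 CPM in trio shCTRL V, 1240, 1174 and 1193 CPM in trio shDAT D and 1025, 1019 and 1081 CPM in trio shCTRL D. Its values spanned little, and all libraries of trio shCTRL V lay above every other library. The authors' deposited table gave it 0.38 in shCTRL V (SE 0.06, adjusted p = 1.92e-08 from DESeq2) and 0.12 in shDAT D (adjusted p = 0.0951). MT-ND1, a membrane subunit near the quinone site, had 2145, 1758 and 2141 CPM in trio shCTRL V, 2471, 2233 and 2377 CPM in trio shDAT D and 3236, 3267 and 1999 CPM in trio shCTRL D. Within trio shCTRL D, shCTRL VXN replicate 2 was low and the other libraries high, so the trios overlapped, although the authors' deposited table gave a log2 change of -0.46 in shCTRL V (SE 0.17, adjusted p = 0.0115 from DESeq2).

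MT-ND2, another proton-pumping subunit, had 6329, 5150 and 6435 CPM in trio shCTRL V, 3295, 3352 and 3330 CPM in trio shDAT D and 6019, 6153 and 2679 CPM in trio shCTRL D. It was high in 5 libraries and low in 4, and the low ones were trio shDAT D and shCTRL VXN replicate 2. MT-ND5 had 2265, 1698 and 2264 CPM in trio shCTRL V, 3094, 2844 and 2884 CPM in trio shDAT D and 1242, 1303 and 2491 CPM in trio shCTRL D. Here shCTRL VXN replicate 2 was the high library of its trio. Neither passed the threshold in the authors' deposited tables, with adjusted p-values from DESeq2 of 0.527 and 0.131 for MT-ND2 and 0.363 and 0.0583 for MT-ND5 in shCTRL V and shDAT D. MT-ND4L, whose gene overlaps that of MT-ND4 by 7 bases, ranged from 1084 to 1855 CPM and was not called in either table.

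MT-ND6 is the only mRNA encoded on the minus strand (chrM:14149-14673) and was, per length, the lowest of the 15 mRNAs and rRNAs in all 9 libraries. It had 86.3, 178 and 83.4 CPM in trio shCTRL V, 55.3, 20.6 and 22.4 CPM in trio shDAT D and 102, 107 and 34.3 CPM in trio shCTRL D. The highest value was that of shCTRL VXN replicate 3, the library with more RNA that lacks poly(A), and the part of this in the result was not tested. In the authors' deposited tables the changes of MT-ND6 were 0.21 (adjusted p = 0.571) in shCTRL V and -0.02 (adjusted p = 0.125) in shDAT D, both from DESeq2. These values are shrunken, and the unshrunken rerun gave 0.50 and -1.38, with a mean CPM in shDAT D that was 0.403 times that of shCTRL D. The ends of 4 mRNAs are shown to compare how their reading frames close, with capitals on the last codon or on the part of it that the DNA encodes. In MT-ND4 and MT-ND1 the DNA supplies only the first 1 or 2 bases of the stop codon and the poly(A) tail completes it, whereas in MT-CO2 and MT-ND6 the last codon is complete (GENCODE v29 on GRCh38).
MT-CO2, chrM:8240-8269, plus strand: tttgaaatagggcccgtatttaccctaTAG
MT-ND4, chrM:12108-12137, plus strand: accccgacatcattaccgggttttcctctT
MT-ND1, chrM:4233-4262, plus strand: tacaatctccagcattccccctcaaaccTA
MT-ND6, chrM:14149-14178, minus strand: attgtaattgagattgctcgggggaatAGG

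None of the mRNAs of complexes III and V was called in either of the authors' deposited tables. MT-CYB, the cytochrome b of complex III, had 3669, 2619 and 3639 CPM in trio shCTRL V, 3871, 3549 and 3684 CPM in trio shDAT D and 3174, 3195 and 3100 CPM in trio shCTRL D. Trio shCTRL V overlapped trio shCTRL D, and the authors' deposited tables gave MT-CYB 0.07 in shCTRL V and 0.08 in shDAT D (adjusted p = 0.673 and 0.287 from DESeq2). MT-ATP6, the subunit that forms the proton path of ATP synthase, ranged from 4118 CPM (shCTRL VXN replicate 3) to 6666 CPM (shCTRL VXN replicate 1), and MT-ATP8, a small subunit of the same complex, from 962 to 1395 CPM. Their genes share 46 bases, and MT-ATP6 shares 1 base with MT-CO3, so how the counting divided reads there is uncertain.

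**Figure D3:**
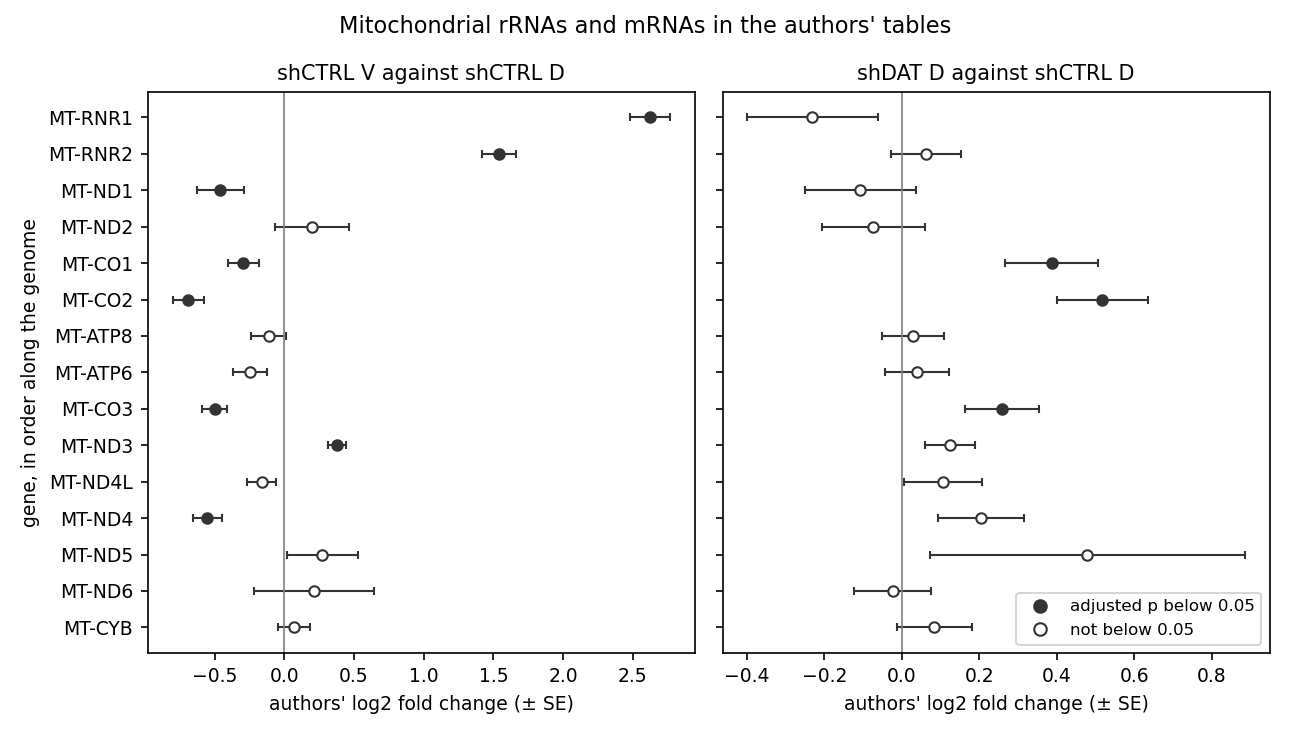
Log2 fold changes with their SE from the authors' deposited tables for the 2 rRNAs and 13 mRNAs, shCTRL V against shCTRL D on the left and shDAT D against shCTRL D on the right, with separate horizontal scales. Filled points have an adjusted p below 0.05. The rRNAs at 2.63 and 1.54 stand far from the mRNAs on the left, and the filled points on the right are MT-CO1, MT-CO2 and MT-CO3.

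Per length, the order of the RNAs changed between trios. In trio shCTRL V the mean level was highest for MT-RNR2, at 8371 CPM per kb, followed by MT-ATP6 at 7064 and MT-RNR1 at 7028 CPM per kb. The order of MT-ATP6 and MT-RNR1 was not the same in every library of that trio. In trio shDAT D, MT-CO3 led with 10768 CPM per kb, then MT-CO2 with 9847 and MT-ATP6 with 9415 CPM per kb, and the rRNAs came at rank 9 (MT-RNR2, 3279 CPM per kb) and rank 14 (MT-RNR1, 913 CPM per kb) of 15. In trio shCTRL D, MT-ATP6 at 8446 and MT-CO3 at 8412 CPM per kb were first, and MT-RNR2 and MT-RNR1 ranked 11 and 13. shCTRL VXN replicate 2 departed from its trio here as well, with MT-CO3, MT-CO2 and MT-ATP6 first, as in each library of trio shDAT D.

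The tRNAs were a trace of the counts and summed to 67.3 to 147 CPM. MT-TQ and MT-TA, the tRNAs for glutamine and alanine, had 0 counts in all 9 libraries, which allows up to 0.0498 to 0.0992 CPM (3 counts) per library, for counting error only. Of the other tRNAs, 17 averaged at least 1 CPM and 3 stayed below (MT-TP, MT-TS2 and MT-TL2). In the authors' deposited table for shCTRL V, 3 tRNAs rose and 3 fell, where 21.4% of all features rose and 22.7% fell. In that for shDAT D only MT-TL1 and MT-TI had an adjusted p and neither passed, where 104 of 10403 features rose and 585 fell. Reads of mature tRNAs and of uncut precursors are not separated in such libraries.

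MT-TK, the tRNA for lysine that lies between MT-CO2 and MT-ATP8, had 3.10, 6.87 and 3.66 CPM in trio shCTRL V, 0.264, 0.235 and 0.269 CPM in trio shDAT D and 0.614, 0.359 and 0.374 CPM in trio shCTRL D. These values rest on 144, 327 and 154 counts in trio shCTRL V, on 8, 12 and 12 in trio shDAT D and on 37, 19 and 20 in trio shCTRL D. Trio shCTRL V lay above all other libraries, with a mean 10.1 times that of shCTRL D and a log2 change of 3.26 in the authors' deposited table (SE 0.37, adjusted p = 4.57e-19 from DESeq2). MT-TW, for tryptophan, had 7.24, 7.36 and 8.02 CPM in trio shCTRL V, 4.10, 3.21 and 2.33 CPM in trio shDAT D and 3.09, 3.13 and 3.38 CPM in trio shCTRL D. It too was high in trio shCTRL V alone, with 1.21 in the authors' deposited table (SE 0.18, adjusted p = 1.92e-11 from DESeq2). MT-TI, for isoleucine, had 12.3, 30.2 and 13.4 CPM in trio shCTRL V, 4.17, 4.12 and 4.42 CPM in trio shDAT D and 9.07, 9.40 and 3.68 CPM in trio shCTRL D. Trio shCTRL V lay above both other trios, which overlapped each other, and shCTRL VXN replicate 3 lay above every other library, and the authors' deposited table gave 1.01 (SE 0.53, adjusted p = 0.0189 from DESeq2). MT-TI and MT-TQ overlap by 3 bases on opposite strands.

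Of the tRNAs that fell in the authors' deposited table for shCTRL V, MT-TF, for phenylalanine, had 3.12, 4.14 and 2.75 CPM in trio shCTRL V, 6.74, 3.88 and 4.19 CPM in trio shDAT D and 8.40, 7.68 and 5.67 CPM in trio shCTRL D. Trio shCTRL V lay wholly below trio shCTRL D, and the authors' deposited table gave -1.04 (SE 0.25, adjusted p = 3.12e-05 from DESeq2). MT-TY, for tyrosine, had 0.388, 1.18 and 0.617 CPM in trio shCTRL V, 0.595, 0.686 and 0.493 CPM in trio shDAT D and 2.44, 2.94 and 0.898 CPM in trio shCTRL D. MT-TL1, a tRNA for leucine next to MT-RNR2, had 15.6, 22.5 and 15.6 CPM in trio shCTRL V, 26.6, 21.6 and 20.9 CPM in trio shDAT D and 39.5, 40.3 and 19.3 CPM in trio shCTRL D. For both, shCTRL VXN replicate 2 was the low library of trio shCTRL D and overlapped trio shCTRL V, and the authors' deposited table gave MT-TY -1.27 (adjusted p = 0.00368) and MT-TL1 -0.73 (adjusted p = 0.0238), both from DESeq2. The 6 called tRNAs are printed below from GENCODE v29 on GRCh38, 5′ to 3′ without the added CCA, with the anticodon in capitals, so that those that rose and those that fell can be set side by side. Only MT-TY of these lies on the minus strand.
MT-TK, rose, chrM:8295-8364, plus strand: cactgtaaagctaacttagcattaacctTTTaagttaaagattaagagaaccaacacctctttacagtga
MT-TW, rose, chrM:5512-5579, plus strand: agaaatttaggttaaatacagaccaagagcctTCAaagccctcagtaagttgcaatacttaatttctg
MT-TI, rose, chrM:4263-4331, plus strand: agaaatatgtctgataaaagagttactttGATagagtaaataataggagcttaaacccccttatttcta
MT-TF, fell, chrM:577-647, plus strand: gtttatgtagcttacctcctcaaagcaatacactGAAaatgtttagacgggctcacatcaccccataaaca
MT-TY, fell, chrM:5826-5891, minus strand: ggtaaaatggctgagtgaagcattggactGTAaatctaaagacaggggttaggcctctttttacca
MT-TL1, fell, chrM:3230-3304, plus strand: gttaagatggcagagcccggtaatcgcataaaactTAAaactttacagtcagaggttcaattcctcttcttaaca

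The remaining tRNAs differed between libraries in ways that the tables did not call. For shDAT D they had no adjusted p, so that table could not call them. Among them MT-TM, for methionine, had a log2 change of -1.02 there, with an unadjusted p of 5.80e-05 (DESeq2). MT-TD, the tRNA for aspartate just before MT-CO2, had 3.77, 4.75 and 3.68 CPM in trio shCTRL V, 18.6, 12.1 and 6.59 CPM in trio shDAT D and 3.55, 4.62 and 16.9 CPM in trio shCTRL D. MT-TH and MT-TG, for histidine and glycine, were likewise highest in shCTRL VXN replicates 1 and 2, at 11.3 and 8.43 CPM for MT-TH and 11.7 and 8.06 CPM for MT-TG, against at most 5.92 and 5.84 CPM in all other libraries. These RNAs were thus high in shCTRL VXN replicates 1 and 2, which the tables place in different trios and the labels in one group, but the third library of that group was low (2.79 CPM for MT-TH and 3.17 CPM for MT-TG). On the minus strand, MT-TC, for cysteine, had 2.95, 17.1 and 2.40 CPM in trio shCTRL V, 1.19, 0.647 and 0.471 CPM in trio shDAT D and 3.01, 3.06 and 0.972 CPM in trio shCTRL D. The 8 minus-strand tRNAs summed to 30.1 CPM in shCTRL VXN replicate 3 and to 3.32 to 13.1 CPM in the other libraries. That library also stood highest in the RNAs without poly(A) named above, and the part of this in its tRNA counts was not tested. The other named tRNAs, MT-TV, MT-TM, MT-TN, MT-TS1, MT-TR, MT-TE and MT-TT, had library values between 0.224 CPM (MT-TN) and 16.3 CPM (MT-TV).

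**Figure D4:**
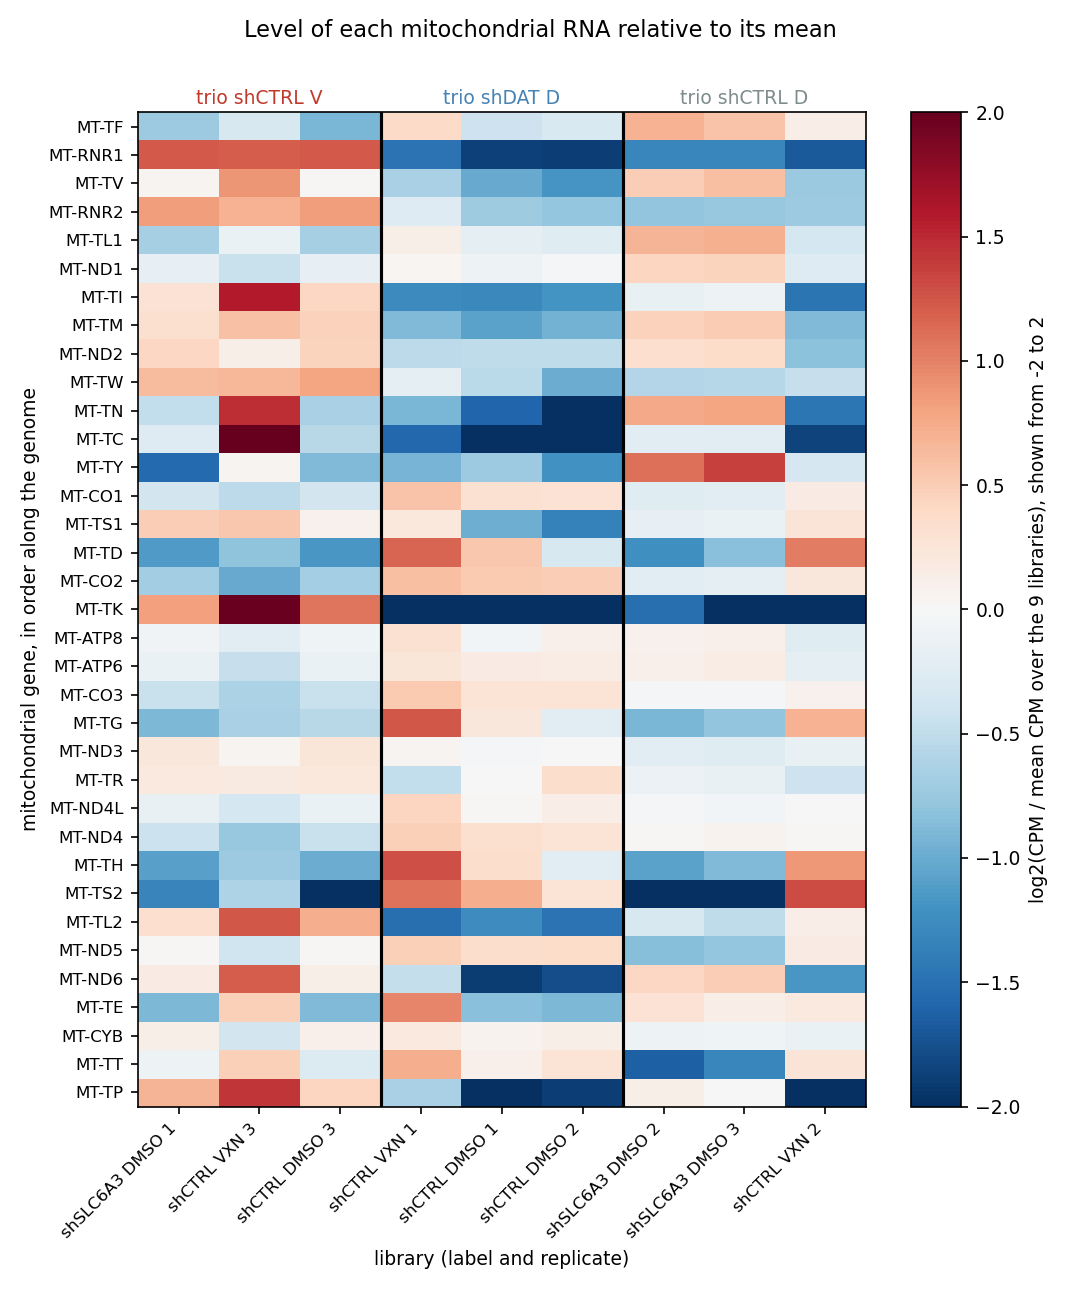
Level of each of the 35 detected mitochondrial RNAs in the 9 libraries, as log2 of CPM over the mean CPM of that RNA (colour, limited to -2 to 2), with genes in order along the genome and libraries grouped by trio of the deposited tables. The rows of MT-RNR1, MT-RNR2, MT-TW and MT-TK are red in trio shCTRL V alone, and the column of shCTRL VXN replicate 2, in trio shCTRL D, resembles those of trio shDAT D in MT-ND2, MT-ND6, MT-TC and MT-TD.

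In shDAT D against shCTRL D, per the authors' deposited table, 3 of 17 members with an adjusted p rose and 0 fell (DESeq2), where 1.0% of 10403 features rose and 5.62% fell. The 3 were MT-CO1, MT-CO2 and MT-CO3, the mRNAs of complex IV, with the values given above. The median log2 change in the authors' deposited table was 0.06 over the 17 members and -0.04 over all features. edgeR, run on the same 6 libraries, called 0 members and 0 of 20084 features. Of the 34 members it tested, 16 had an unadjusted edgeR p below 0.05, where 15.1% of all features did. All libraries of trio shDAT D lay above those of trio shCTRL D for 8 of the 17 members, all mRNAs, where 7.32% of features did. They lay below for 0 of the 17, where the share of features was 15.3%. Of the 18 detected members without an adjusted p, MT-TY, MT-TK and MT-TL2 lay wholly below and 0 wholly above. No share over all features without an adjusted p was computed to set beside this, and MT-TL2 had only 2 to 4 counts per library in trio shDAT D. Both tables share the shCTRL D libraries, so their changes are not independent of each other.

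One library of trio shCTRL D changed the calls of this comparison. The ratio of MT-CO2 to MT-ND2 counts was 0.454, 0.449 and 0.449 in trio shCTRL V, 2.13, 1.99 and 1.95 in trio shDAT D and 0.664, 0.655 and 2.02 in trio shCTRL D, where the last value is that of shCTRL VXN replicate 2. On this measure the library lay inside the range of trio shDAT D. Over all features it was also nearer to that trio, with a chi-square per degree of freedom of 7.87 to 10.6 against its 3 libraries and 63 and 66.4 against shSLC6A3 DMSO replicates 3 and 2. When it was left out and DESeq2 was rerun, 10 of 35 members were higher and 12 lower in shDAT D, where 14.8% of 21018 features were higher and 22.7% lower in the same rerun. Calls thus rose over all features and not for the members alone. Trio shCTRL D then held only shSLC6A3 DMSO replicates 2 and 3, a close pair with a chi-square of 1.43 per degree of freedom. The calls of this rerun therefore rest in part on the small spread within that pair. Higher were MT-CO1 (0.55), MT-CO2 (0.66), MT-CO3 (0.31), MT-ND3 (0.15), MT-ND5 (1.12) and 5 tRNAs, with MT-TS2 at 2.95, MT-TT at 1.76 and MT-TD at 1.52 on the log2 scale. Lower were MT-ND1 (-0.55), MT-ND2 (-0.96), MT-ND6 (-1.76), MT-RNR1 (-0.51) and 8 tRNAs, with MT-TN at -2.37, MT-TY at -2.27 and MT-TV at -1.57. MT-TS2 rested on few counts, 31, 41 and 26 in trio shDAT D and 6 and 5 in shSLC6A3 DMSO replicates 2 and 3. MT-TN had 18, 19 and 10 counts in trio shDAT D and 114 and 103 in that pair. Leaving out another library gave fewer calls than the full set. Without shCTRL DMSO replicate 1, 2 of 15 members were higher and 0 lower, against 0.162% and 0.259% of all features. With shCTRL VXN replicate 1 left out, 0 of 35 were higher and 1 lower, where 0% and 0.00518% of features were. There were 0 higher and 0 lower, among members and over all features, without shCTRL DMSO replicate 2, shSLC6A3 DMSO replicate 2 or shSLC6A3 DMSO replicate 3. With the 6 libraries alone in the DESeq2 model, 1 member was higher, where 1 of 37347 features was called. edgeR called 0 members and 0 of 20084 features.

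For shCTRL V the calls were steadier. In DESeq2 reruns that left out 1 library, 6 to 8 members were higher and 5 to 10 lower, where 19.1% to 23.5% of features were higher and 20.7% to 24.6% lower, with 5 members lower without shSLC6A3 DMSO replicate 3. The calls of MT-RNR1, MT-RNR2, MT-TK, MT-TW, MT-ND3, MT-CO2, MT-CO3, MT-ND4, MT-TF and MT-TI held in all of these reruns, although MT-TI stood at 0.79 on the log2 scale without shCTRL VXN replicate 3 and at 1.33 with all libraries (unshrunken). MT-TL1 was lost in 4 of 6 omissions, MT-ND1 in 3, and MT-CO1 and MT-TY in 1 each (MT-CO1 without shCTRL VXN replicate 3, MT-TY without shSLC6A3 DMSO replicate 3). Without shCTRL VXN replicate 2 the change of MT-CO1 was -0.20, against -0.31 with all libraries (both unshrunken).

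Some nuclear DNA carries near-identical copies of mitochondrial genes, and counts on these rows may belong to the mitochondrial genes. The 3 with the highest mean, all on chromosome 1, were MTATP6P1 (451 to 682 CPM), MTND2P28 (90.8 to 232 CPM) and MTCO1P12 (8.66 to 39.8 CPM). MTND2P28 had 225, 186 and 232 CPM in trio shCTRL V, 108, 114 and 125 CPM in trio shDAT D and 219, 220 and 90.8 CPM in trio shCTRL D. It was high and low in the same libraries as MT-ND2, so the division of reads between this pair is uncertain. Of 27 such copies with an adjusted p in the authors' deposited table for shCTRL V, 4 rose and 4 fell. Over all features of that table, 21.4% rose and 22.7% fell. Of 3 copies in the table for shDAT D none passed in DESeq2, where 104 of 10403 features rose and 585 fell.

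The nuclear genes that serve the mitochondrial genome mostly fell in the authors' deposited table for shCTRL V, where 22.7% of all features fell. Of genes for transcription of mitochondrial DNA, 7 of 11 fell and 0 rose, among them POLRMT, the mitochondrial RNA polymerase (-0.77), and MTERF3, a factor that restrains this transcription (-0.89). Of genes that copy and maintain mitochondrial DNA, 12 of 18 fell and 3 rose, with DNA2, a nuclease and helicase (-1.81), and MGME1, a mitochondrial exonuclease (-1.27), lower and TYMP, thymidine phosphorylase, higher (1.21) in the authors' deposited table. Of genes that process and modify mitochondrial RNA, 22 of 31 fell and 3 rose, including TRMT10C, a subunit of the RNase P that cuts the 5′ end of tRNAs (-0.71), and ELAC2, which cuts their 3′ end (-0.72). Of genes for RNA stability and decay, 5 of 10 fell and 3 rose, with LRPPRC (-0.47) and SLIRP (-0.76), which protect mitochondrial mRNAs, and PNPT1, a ribonuclease (-0.87), all lower in the authors' deposited table. POLRMT had 84.8, 92.1 and 82.8 CPM in trio shCTRL V, 148, 146 and 141 CPM in trio shDAT D and 142, 148 and 157 CPM in trio shCTRL D. Trio shCTRL V lay below all other libraries for POLRMT while both rRNAs lay above.

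Of regulators of mitochondrial gene programmes, 6 of 9 with an adjusted p fell and 0 rose in the authors' deposited table for shCTRL V, with PPARGC1B, a coactivator of mitochondrial genes, at -2.04. Of mitochondrial translation factors 7 of 16 fell and 2 rose, with the elongation factor TUFM at -0.94 in the authors' deposited table. The nuclear subunits that join the mitochondrial products in the same complexes also fell there, 29 of 37 in complex I (1 rose), 10 of 10 in complex III, 10 of 10 in complex IV and 17 of 18 in complex V, as did 3 of 4 in complex II, which holds no mitochondrial product. Examples from the authors' deposited table are NDUFV1 of complex I (-0.95), CYC1, the cytochrome c1 of complex III (-1.11), COX5A of complex IV (-0.66), ATP5F1D of complex V (-1.12) and SDHA of complex II (-0.93). Summed over the nuclear subunits, complex IV stood at 971, 947 and 980 CPM in trio shCTRL V, 1426, 1346 and 1377 CPM in trio shDAT D and 1320, 1301 and 1430 CPM in trio shCTRL D. The mitochondrial mRNAs of that complex summed to 12990, 11261 and 13032 CPM in trio shCTRL V, 26655, 23021 and 22748 CPM in trio shDAT D and 16117, 16321 and 19965 CPM in trio shCTRL D. Both sums were lowest in trio shCTRL V, but in trio shDAT D the mitochondrial sum lay above that of trio shCTRL D while the nuclear sums overlapped.

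For shDAT D, where 5.62% of features fell in the authors' deposited table, TOP3A, a topoisomerase that separates mitochondrial DNA circles (-0.18, adjusted p = 0.0387), fell among the upkeep genes. HSD17B10, an RNase P subunit (-0.27, adjusted p = 0.0373), and TRMU, which thiolates mitochondrial tRNAs (-0.34, adjusted p = 0.0473), fell among the RNA processing genes (all from DESeq2). No other member of these lists passed in that table, in either direction. Between the labelled groups edgeR called no gene of any of these lists, where 0 and 2 of 20402 features were called for shSLC6A3 DMSO and shCTRL VXN.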

How the data were processed

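Total RNA of 9 HCT116 libraries was prepared with a poly(A) kit (TruSeq RNA v2), per the labels' protocols. Per the submitters' processing notes, fastp 0.20.1, FastQC 0.11.9, STAR and DESeq2 1.34.0 were used with GRCh38. The program and annotation used for counting are not stated there. Per gene and repeat subfamily, the authors deposited raw counts. Log2 fold changes in the authors' tables came from DESeq2, and for all 35 detected members in each table they are smaller in size than those of an unshrunken rerun. The deposited p-values, raw and adjusted, came from DESeq2 too, and the deposited base mean is a mean signal of normalised counts.

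Members were found by symbol, and positions and sequences taken from GENCODE 29 on GRCh38 (37 of 37 matched). The members and gene lists were chosen with earlier results of these data known. CPM values are scaled to all counts of a library. Labelled groups were fitted with edgeR 4.0.16 in R 4.3.3 (quasi-likelihood, TMM, all 9 libraries, filterByExpr, 20402 features) and called at an adjusted p below 0.05, as in the tables. The step was tested on simulated counts whose spread was that within the trios. Labelled groups mix the trios, so this does not show what the step could find between them. DESeq2 1.42.0 was an alternative and served to trace the tables. Scalings, filters, omitted libraries and a replicate block were also tried. Shares were compared with exact permutation tests (SciPy 1.17.1). Intervals and limits for a count of 0 cover counting error only.

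The replicate numbers of shCTRL VXN and shCTRL DMSO come from the labels, which do not say what they mark. Over 20402 features the deviations of same-numbered libraries from their group means correlated at 0.68, 0.72 and 0.89. Libraries with different numbers did so too, shCTRL VXN replicate 1 with shCTRL DMSO replicate 2 at 0.69 and shCTRL VXN replicate 2 with shCTRL DMSO replicate 1 at 0.74. The correlations thus do not show that the numbers mark pairs. Named were the 13 mRNAs, the 2 rRNAs and the tRNAs at a mean of at least 1 CPM or called in a deposited table, with the 3 most abundant nuclear copies and up to 4 called members of each list by adjusted p. Outside this rule, MT-TP, MT-TS2 and MT-TL2 are named as below that mean, and MT-TQ and MT-TA as undetected. MT-TS2 and MT-TL2 are also named for single results. Other members of the lists are given by count.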

Additional observations from a re-analysis of the deposited data

How the results depend on the processing

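No mitochondrial RNA was called between labelled groups under any scaling, filter, tool or omission tried, 0 to 0 without 1 library each. Hardly any feature was called in these fits, 0 in each omission and at most 20 of 20315 otherwise (DESeq2, shCTRL VXN). The zeros are thus not particular to the members. With the replicate number as a block, edgeR again called 0 members in either labelled comparison, and the share of mitochondrial counts differed by -0.442 points for shSLC6A3 DMSO (exact sign-flip p = 0.5) and by -0.262 points for shCTRL VXN (exact sign-flip p = 1). For shCTRL VXN, the 2 features called over the whole table were lost with the block (0 called), and neither is mitochondrial. With the block, added after seeing the data for the rRNA, tRNA and MT-ND6 shares, their exact sign-flip p ran from 0.25, the smallest that 3 pairs can give, to 0.75. The same-numbered libraries of shSLC6A3 DMSO and shCTRL DMSO deviated from their group means with correlations of -0.69, 0.64 and -0.67, and not every library correlated best with its own number.

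Without 1 library each, the share of mitochondrial counts differed by -0.734 to -0.271 points for shSLC6A3 DMSO and -0.805 to 0.0457 for shCTRL VXN. The rRNA share of mitochondrial counts differed by -6.22 to 8.85 and -6.04 to 9.93 points, the tRNA share by 0.0432 to 0.0768 and 0.0406 to 0.0972, and the MT-ND6 share of mRNA by 0.0940 to 0.173 and -0.0103 to 0.208. The log2 difference of MT-RNR1 ran from -1.24 to 2.01 and -1.56 to 1.93, and that of MT-RNR2 from -0.75 to 0.78 and -0.49 to 0.82. The cause of these changes of sign was not tested beyond the omissions named above.

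For the authors' table shDAT D, a DESeq2 rerun with total counts as size factors gave 5 higher and 1 lower, where 127 and 379 of 11863 features were. The 6 libraries alone (an alternative added after seeing the data) gave 1 higher, where 1 of 37347 features was called. With edgeR, 0 members and 0 of 20084 features were called. Omissions gave 0 to 10 higher and 0 to 12 lower. For shCTRL V they gave 6 to 8 higher and 5 to 10 lower. With the 6 libraries alone, MT-TI and MT-TL1 lost their calls (adjusted p = 0.0613 for both, DESeq2), and with edgeR MT-ND1 did (0.0779). MT-RNR2 for shSLC6A3 DMSO turned to -0.0145 with total counts. Of 68 recomputed shares 60 kept their direction. Of 347 recomputed values for single genes, 304 kept their direction and side of the threshold. Of 76 recomputed counts of calls, 64 stayed within 1.5 times the reported count and 50 equalled it. Every count for the labelled groups was 0, so all 12 that moved belonged to the authors' tables. The equal counts include the rerun that reproduces those tables, so the tally does not measure how steady their calls were.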
